A study of Mus musculus with 9 samples.

Results

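The genes described here are 10 long noncoding RNAs (lncRNAs): 8 genes whose introns carry small nucleolar RNAs (snoRNAs), namely Gas5, Snhg1, Snhg3, Snhg5, Snhg6, Snhg8, Snhg12 and Snhg15, and the nuclear RNAs Malat1 and Neat1. They were taken from the count table by gene symbol, and each of the 10 symbols matched 1 of its 55359 rows. RNA-seq was done on 9 libraries of precursor cells from mouse inguinal white fat, 3 each before induction (day 0) and after 4 and 8 days of beige differentiation. Days 4 and 8 had received a medium with dexamethasone, 3-isobutyl-1-methylxanthine (IBMX), indomethacin, insulin, triiodothyronine and rosiglitazone, and only the last 3 of these were kept once the first 2 days had passed. Day 0 cells had received none of it. The labels give no genotype, strain, sex, age or number of donor animals, and do not say whether replicates were separate cultures, so the p-values reflect variation among these libraries alone, possibly technical. All libraries, day 0 included, came from the supernatant of a cycloheximide and Triton X-100 lysate spun at 20000 g, followed by ribosomal RNA removal. Nuclear RNA may be depleted in such a supernatant. No nuclear fraction was analysed here, so each value below is a level in the supernatant, and fewer cells of a type cannot be told apart from less RNA per cell.

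A snoRNA host gene is transcribed as a spliced precursor whose introns are trimmed to snoRNAs, the guides for ribosomal RNA modification, while the spliced exons leave the nucleus. Several hosts start transcription at a pyrimidine tract like that of ribosomal protein genes (the 5′ TOP class), and their spliced RNAs are engaged by ribosomes and degraded by nonsense-mediated decay, which cycloheximide blocks. Malat1 sits in nuclear speckles, which store splicing factors, and Neat1 is the scaffold of paraspeckles, nuclear bodies built with the proteins Nono, Sfpq and Pspc1.

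Sequences around the annotated start of transcription are shown because 5 of the hosts share letters there whichever way their levels went. RefSeq's promoter table (build GRCm38.p6) held entries for 8 of the 10 genes and none was used for Snhg6 and Neat1; Gas5 had 2 entries, and the downstream one is shown because it holds both features described here. The upstream entry of Gas5 has no TATA in the window and a C or T run of 3 letters. The entry of Snhg3, not printed, has a run of 5 letters and no TATA in the window. Each run holds 50 bases before and 50 from the start, 5′ to 3′ on the gene's strand. Capitals mark TATA between positions -40 and -20 and any run of at least 5 C or T letters that overlaps positions -5 to 10, counted from 1 at the start. The positions are chr1:161035116-161035215 (+) for Gas5, chr4:132308628-132308727 (+) for Snhg12, chr3:123508287-123508386 (-) for Snhg8, chr19:8723437-8723536 (+) for Snhg1, chr9:88522848-88522947 (-) for Snhg5, chr11:6528711-6528810 (-) for Snhg15 and chr19:5802623-5802722 (-) for Malat1.
Gas5: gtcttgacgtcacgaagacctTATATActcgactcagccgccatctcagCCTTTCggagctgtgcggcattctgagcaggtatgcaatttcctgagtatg
Snhg12: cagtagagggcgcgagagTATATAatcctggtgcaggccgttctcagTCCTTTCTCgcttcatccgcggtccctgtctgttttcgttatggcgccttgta
Snhg8: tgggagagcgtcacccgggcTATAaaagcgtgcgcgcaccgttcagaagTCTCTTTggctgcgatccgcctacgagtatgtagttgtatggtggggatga
Snhg1: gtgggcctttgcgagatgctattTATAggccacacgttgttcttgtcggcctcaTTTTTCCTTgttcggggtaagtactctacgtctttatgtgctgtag
Snhg5: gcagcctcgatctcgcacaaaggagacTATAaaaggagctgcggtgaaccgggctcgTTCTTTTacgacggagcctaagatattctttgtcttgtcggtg
Snhg15: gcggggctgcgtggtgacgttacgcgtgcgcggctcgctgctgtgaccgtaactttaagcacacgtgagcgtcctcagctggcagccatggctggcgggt
Malat1: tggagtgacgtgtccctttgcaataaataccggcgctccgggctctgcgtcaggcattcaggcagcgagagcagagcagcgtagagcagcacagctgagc
TATA, which reads the same on both strands, stood at -29 in Gas5, -32 in Snhg12, -30 in Snhg8, -27 in Snhg1 and -23 in Snhg5, and 5.49% of all 32851 entries hold it in that window. A C or T run of 6 letters lay across the start of Gas5, of 9 across that of Snhg12 and of 7 across that of Snhg8, while those of Snhg1 (9 letters) and Snhg5 (7 letters) began at positions 5 and 8. Such a run, read on the gene's strand, is common, in 38.0% of all entries; both features together are in 2.28%. The windows and letters were chosen after these sequences were seen. The palindrome TGACGTCA, the full cAMP response element, occurred in the 300-base entries of Gas5 and Snhg15 and in 1.79% of all entries, and the E-box CACGTG in that of Snhg15 and in 7.15%. These matches describe letters and show no bound factor.

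Total counts were 26387408 to 31474490 per library, and 14649 genes had enough counts to be tested. Levels below are CPM, a gene's share of its TMM-scaled library times 1e6. The first principal component placed day 0 libraries between -138 and -135 and day 8 libraries between 72.7 and 92, with day 4 at 84.6, 13.7 and 69.5, so day 4 replicate 2 stood apart. Its 9 adipocyte markers (Adipoq, Fabp4 and others) summed to 23830 CPM against 43380 and 38630 in day 4 replicates 1 and 3, and its 8 precursor markers to 2137 against 841.1 and 959.6. Adipocyte markers summed to 31810 to 33480 CPM at day 8 and 364.9 to 447.4 CPM at day 0, and precursor markers to 668.5 to 899.2 CPM at day 8 and 2244 to 2419 CPM at day 0. All 9 adipocyte markers and all 6 thermogenic markers, Ucp1 included, were higher at day 8 than at day 0, and 4 of 7 tested precursor markers were lower. At day 4 against day 0 the precursor markers split. Of the 7 tested, 3 were higher (Ly6a, Cd34 and Dlk1) and 3 lower, with a median log2 fold change of 0.24. Ly6a alone had 464 to 1130 CPM at day 4, so their sum does not show this split. Lymphocyte markers summed to at most 0.104 CPM, endothelial markers to at most 3.17 CPM, macrophage markers to 7.6 to 21.0 CPM and mural cell markers to 25.4 to 62.7 CPM over the 9 libraries. Mitochondrial transcripts made up 1.49 to 1.73% of counts at day 0, 3.17 to 5.65% at day 4 and 4.94 to 8.46% at day 8. The part of these shifts, and of day 4 replicate 2, in the lncRNA levels was not tested.

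Over the time course the hosts took separate paths. In the edgeR fit of all 9 libraries with TMM scaling, Gas5 and Snhg12 were lower at both later days and Snhg8 at day 8. Snhg5 and Snhg6 were higher at day 8 than at day 4, and Snhg1 and Snhg15 passed no test in that fit. Malat1 was lower at both later days and Neat1 passed no test in that fit. Snhg1, Snhg15 and Neat1 each passed under some of the alternatives given below. The summed level of the 8 hosts was 512.3 to 530.3 CPM at day 0, 322.8 to 453.8 CPM at day 4 and 305 to 409.1 CPM at day 8. Gas5 averaged 272.0 of a mean sum of 522.6 CPM at day 0, and 131.4 of 353.2 CPM at day 8. The 7 tested hosts had a median log2 fold change of -0.28 at day 4 and 0.13 at day 8 against day 0. With total counts these medians were -0.60 and -0.24. Of 9 tested members 4 differed between day 4 and day 0, where 54.6% of all tested genes did, 4 between day 8 and day 0, where 63.4% did, and 2 between day 8 and day 4, where 22.4% did (edgeR quasi-likelihood test, Benjamini-Hochberg adjusted p under 0.05). All 4 called in each comparison with day 0 were lower. Over all genes, 26.0% were lower and 28.6% higher at day 4 and 29.9% lower and 33.5% higher at day 8, against day 0. The 2 called at day 8 against day 4 were higher, where 11.7% of all genes were higher and 10.8% lower. With TMM scaling, in either direction, the members' share was no larger than that of all genes, while the 4 of 9 that were lower against day 0 exceed the share of all genes that were lower, a difference that was not tested. With total counts 7 of 9 members were called at day 4 against day 0, above the 59.4% of all genes called, and all 7 were lower, as were 38.4% of all genes. The tested members had a median log2 fold change of -0.28 at day 4 and -0.33 at day 8 against day 0, beside -0.01 and 0.03 over all genes, and of -0.04 at day 8 against day 4, beside 0.00 over all genes.

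**Figure D1:**
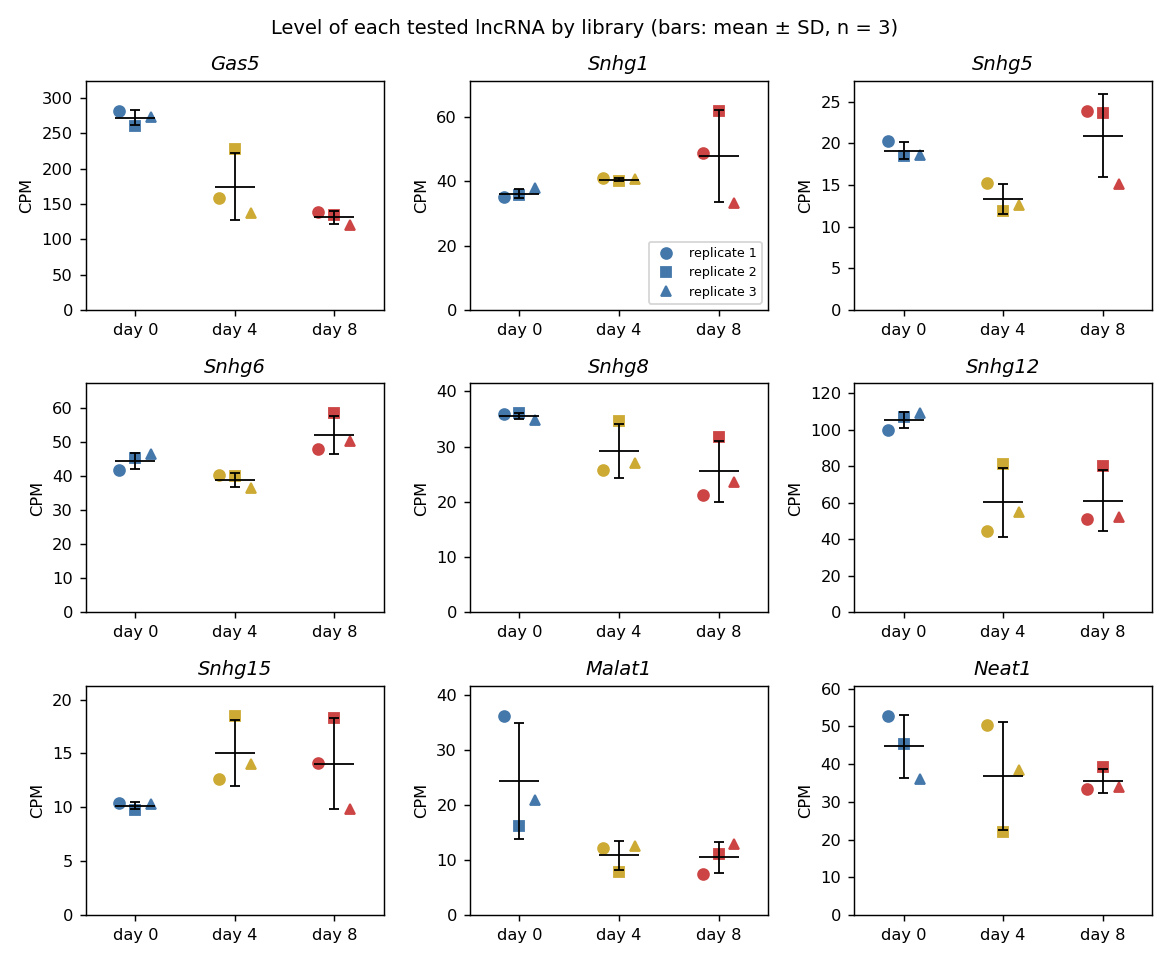
CPM of the 9 tested lncRNAs in each library, by day, with each axis from 0; symbols mark replicates and bars the mean ± SD of 3 libraries. The Gas5 points lie at 121 to 139 CPM at day 8 and at 261 to 282 CPM at day 0, and day 4 replicate 2 is the highest day 4 point for Gas5, Snhg8, Snhg12 and Snhg15 and the lowest for Snhg1, Snhg5, Malat1 and Neat1.

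Gas5, first isolated from growth-arrested mouse cells and known in human cells as a decoy for the glucocorticoid receptor, had the most counts of the 10 genes. It measured 282, 261 and 274 CPM at day 0, 159, 228 and 137 CPM at day 4, and 139, 135 and 121 CPM at day 8. Every day 4 and day 8 library was below every day 0 library, and day 4 replicate 2 lay between the other day 4 libraries and day 0. The level was 131.4 ± 9.31 CPM at day 8 and 272.0 ± 10.6 CPM at day 0 (SD, n = 3 each), 2.07-fold lower at day 8 (log2 fold change -1.05, SE 0.18, edgeR adjusted p = 0.0005). At day 4 the log2 fold change against day 0 was -0.64 (SE 0.18, edgeR adjusted p = 0.0113), -0.88 without day 4 replicate 2 and -0.49 without day 4 replicate 3 (adjusted p = 0.0532). The further difference between day 8 and day 4 did not pass (-0.41, SE 0.18, edgeR adjusted p = 0.122; -0.56 to -0.22 without single libraries). Zbtb37, on the other strand, overlaps Gas5 in GENCODE M21 and had 31 to 163 counts per library, where Gas5 had 3449 to 10447.

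Snhg12, host of Snora16a, Snora44, Snora61 and Snord99, had 100, 107 and 109 CPM at day 0, 44.6, 81.1 and 55 CPM at day 4, and 51.2, 80.4 and 52.1 CPM at day 8. Replicate 2 was the highest library on both later days, and no later library reached the day 0 range. It fell at day 4 against day 0 (log2 fold change -0.80, SE 0.23, edgeR adjusted p = 0.0132) and was lower at day 8 than at day 0 (-0.78, SE 0.23, edgeR adjusted p = 0.0126). Without day 4 replicate 3 the first had an adjusted p of 0.0532, and without day 8 replicate 1 or 3 the second had 0.0535 and 0.0517. Snhg8, host of Snora24, had 35.8, 36 and 34.8 CPM at day 0, 25.7, 34.7 and 27.1 CPM at day 4, and 21.2, 31.7 and 23.6 CPM at day 8. Its day 8 libraries were all below day 0 (log2 fold change -0.48, SE 0.17, edgeR adjusted p = 0.0328), but leaving out any 1 day 0 library, or day 8 replicate 1 or 3, gave an adjusted p of 0.0538 to 0.112. At day 4 its log2 fold change against day 0 was -0.28 (edgeR adjusted p = 0.19), -0.43 without day 4 replicate 2 (adjusted p = 0.0386) and -0.60 with total counts (0.0155).

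**Figure D2:**
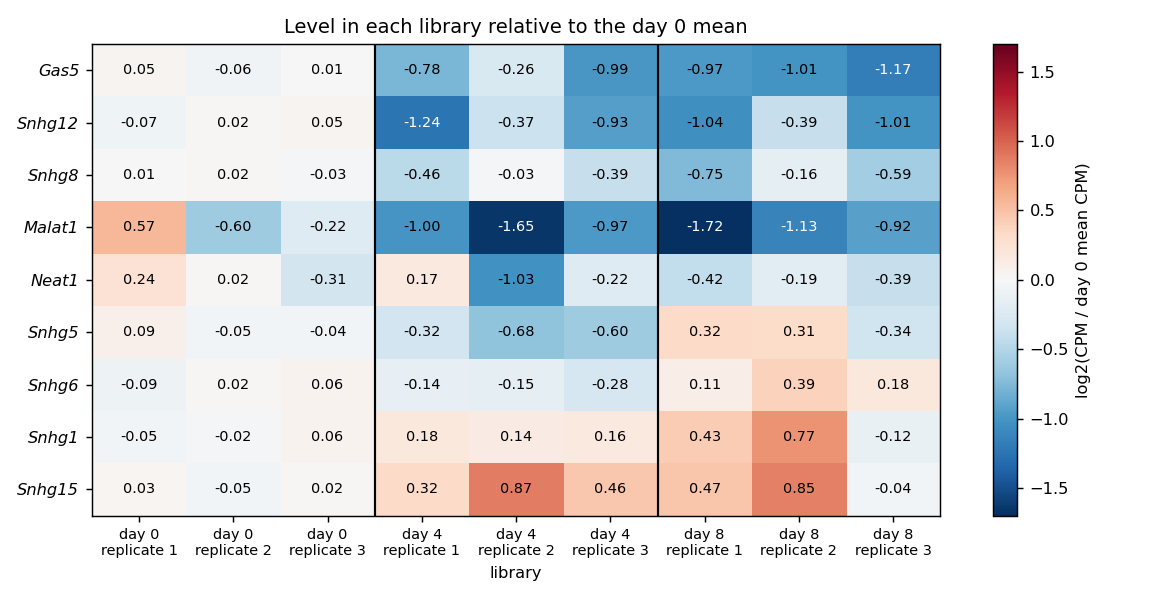
Log2 of CPM over the day 0 mean for 9 lncRNAs (down the page) in the 9 libraries (across), blue for lower and red for higher. Gas5, Snhg12 and Snhg8 are below 0 in all 6 later libraries, with day 4 replicate 2 at -0.26, -0.37 and -0.03, while Snhg1 and Snhg15 are above 0 in 5 of them under TMM scaling; with total counts the Snhg1 fold change at day 4 turned to -0.16.

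Snhg5 and Snhg6 were lowest at day 4. Snhg5, which hosts the box C/D snoRNAs Snord50a and Snord50b, had 20.3, 18.5 and 18.6 CPM at day 0, 15.3, 11.9 and 12.6 CPM at day 4, and 23.9, 23.7 and 15.1 CPM at day 8. Its day 4 libraries lay below day 0, and day 8 replicate 3 lay within the day 4 range. It fell at day 4 against day 0 (log2 fold change -0.53, SE 0.19, edgeR adjusted p = 0.0387) and rose at day 8 against day 4 (0.66, SE 0.19, edgeR adjusted p = 0.0347). Snhg6, host of Snord87, had 41.8, 45.1 and 46.3 CPM at day 0, 40.2, 39.9 and 36.5 CPM at day 4, and 47.8, 58.3 and 50.1 CPM at day 8. The 3 days did not overlap, and Snhg6 rose at day 8 against day 4 (0.42, SE 0.12, edgeR adjusted p = 0.0334). It was the 1 member of 9 whose day 8 and day 4 libraries did not overlap, where 37.0% of all tested genes do not. At day 8 against day 0 Snhg6 had a log2 fold change of 0.23 (SE 0.12, edgeR adjusted p = 0.122) and Snhg5 of 0.13 (SE 0.19, edgeR adjusted p = 0.573), with ranges of 0.15 to 0.29 and 0.02 to 0.32 without single libraries, and with total counts the values turned to -0.14 for Snhg6 and -0.24 for Snhg5. At day 4 against day 0 Snhg6 had -0.19 (SE 0.12, edgeR adjusted p = 0.21), and -0.52 with total counts (0.00392). These calls lay near the threshold. The Snhg5 fall at day 4 did not pass without any 1 day 0 library or day 4 replicate 2 or 3 (adjusted p from 0.0732 to 0.113). Neither rise at day 8 passed without any 1 day 0 library or without day 4 replicate 3 or day 8 replicate 2 (0.0577 to 0.115). The Snhg5 rise also did not pass without day 4 replicate 2 or day 8 replicate 1, nor the Snhg6 rise without day 8 replicate 3. Fitted on days 4 and 8 alone, the rises had an adjusted p of 0.0991 for Snhg5 and 0.115 for Snhg6, and with no filter on low counts Snhg6 had 0.0827.

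Snhg1, host of Snord22 and of a cluster of box C/D snoRNAs, had 35, 35.8 and 37.8 CPM at day 0, 41.1, 40 and 40.6 CPM at day 4, and 48.7, 61.9 and 33.3 CPM at day 8. The day 8 libraries spread around both other days, and the log2 fold change of day 8 against day 0 was 0.41 (SE 0.19, edgeR adjusted p = 0.0849). It was 0.62 without day 8 replicate 3 (adjusted p = 0.00512), 0.18 without day 8 replicate 2 (0.354) and 0.03 with total counts (0.886). At day 4 against day 0 it was 0.16 (edgeR adjusted p = 0.491), and -0.16 with total counts. Snhg15, host of Snora9, had 10.4, 9.78 and 10.3 CPM at day 0, 12.6, 18.5 and 14 CPM at day 4, and 14.1, 18.3 and 9.85 CPM at day 8. Every day 4 library was above day 0, with a log2 fold change of 0.57 (SE 0.23, edgeR adjusted p = 0.0571; DESeq2 adjusted p = 0.0436). It passed in edgeR when day 4 replicate 1 (adjusted p = 0.0431), day 8 replicate 2 (0.0356) or day 8 replicate 3 (0.0301) was left out, and on days 0 and 4 alone (0.0259). Without day 4 replicate 2 the value was 0.39 (adjusted p = 0.15), and with total counts 0.25 (0.368). At day 8 its log2 fold change against day 0 was 0.47 (SE 0.23, edgeR adjusted p = 0.096), 0.68 without day 8 replicate 3 (adjusted p = 0.0197), 0.24 without day 8 replicate 2 (0.366) and 0.09 with total counts (0.735). In the comparison of day 4 with day 0, 8 of 9 members had libraries that did not overlap, where 65.8% of all tested genes do not, and in that of day 8 with day 0, 5 of 9, where 72.7% do not.

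Snhg3, host of Snora73a and Snora73b, had 3, 0 and 4 counts at day 0, 0, 0 and 2 at day 4, and 0 in each day 8 library, where 3 counts would be 0.104 to 0.113 CPM. It was too low to be tested. In GENCODE M21 it overlaps Rcc1 on the same strand, and Rcc1, a nucleotide exchange factor for Ran, had 410 to 913 counts per library. How reads shared by both genes were counted was not given in the sources used here. The snoRNAs themselves were nearly unmeasured. The 26 snoRNA rows inside 7 of the hosts, on the same strand, summed to 0 counts over the 9 libraries, where Gas5 alone had 52323. A count of 0 in a library allows up to 3 counts, or 0.0809 to 0.125 CPM, counting error only. This limit does not cover reads left out because a snoRNA row overlaps its host, since the handling of shared reads was not given. Of all 1065 snoRNA rows 93 had any count, with 1173 counts in all, so nothing here bears on whether mature snoRNAs followed their hosts.

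**Figure D3:**
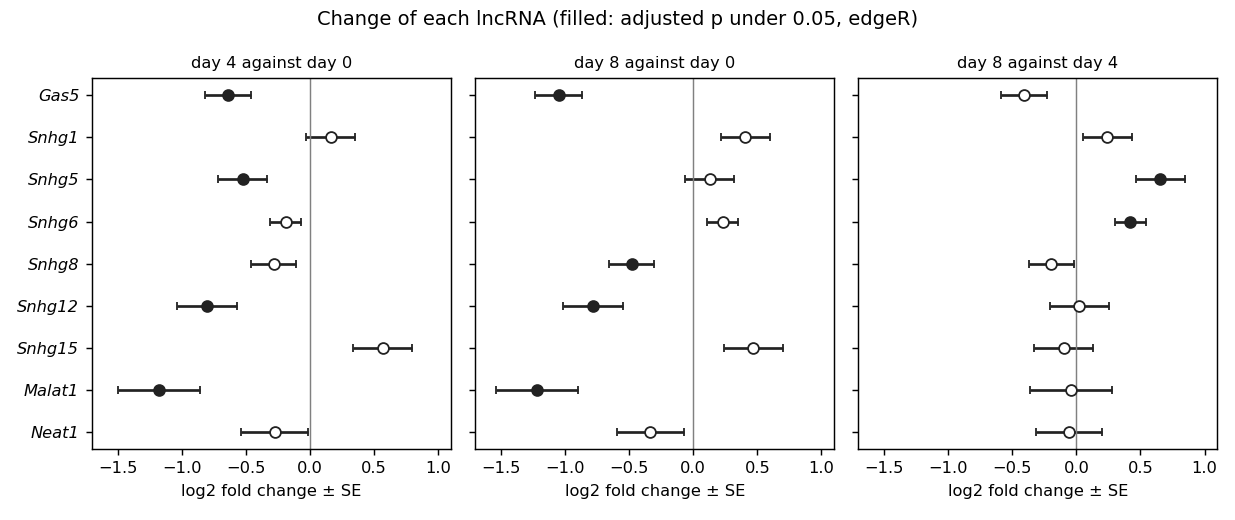
Log2 fold change ± SE of 9 lncRNAs in 3 comparisons from 1 edgeR fit; filled points have an adjusted p under 0.05. In the comparisons of day 4 and day 8 with day 0 the filled points lie left of 0, and Malat1 has the longest bars, with SE 0.32.

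Because all scaling drops out of a ratio of 2 genes within a library, the counts of Gas5 were set over those of Snhg1. There were 8.04, 7.28 and 7.25 Gas5 counts per Snhg1 count at day 0, 3.86, 5.69 and 3.38 at day 4, and 2.84, 2.18 and 3.63 at day 8. The ratio was below day 0 in each of the 6 later libraries, by 1.41 on the log2 scale at day 8. Over Snhg6, Gas5 gave 6.73, 5.78 and 5.92 at day 0, 3.94, 5.7 and 3.75 at day 4, and 2.9, 2.31 and 2.41 at day 8. Snhg12 over Snhg1 gave 2.86, 2.98 and 2.88 at day 0, 1.09, 2.03 and 1.36 at day 4, and 1.05, 1.3 and 1.57 at day 8. All 3 pairs set a gene already seen to be lower over one that was not, so their direction was fixed by the choice and no test is given.

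Malat1 had 36.2, 16.1 and 20.9 CPM at day 0, 12.2, 7.76 and 12.5 CPM at day 4, and 7.43, 11.1 and 12.9 CPM at day 8. All later libraries were below all day 0 libraries, but the day 0 libraries spread widely, with replicate 1 well above the other two. Malat1 fell 2.26-fold at day 4 (log2 fold change -1.18, SE 0.32, edgeR adjusted p = 0.00999) and was 2.33-fold lower at day 8 (-1.22, SE 0.32, edgeR adjusted p = 0.00668), each against day 0. Without day 0 replicate 1 these were -0.78 (adjusted p = 0.0486) and -0.84 (adjusted p = 0.0302). Neat1 had 52.8, 45.4 and 36.1 CPM at day 0, 50.4, 22 and 38.4 CPM at day 4, and 33.3, 39.2 and 34 CPM at day 8. Its days overlapped in every pairing, and the log2 fold change was -0.28 at day 4 (SE 0.26, edgeR adjusted p = 0.386) and -0.33 at day 8 (SE 0.26, edgeR adjusted p = 0.279) against day 0. The day 4 value moved with the library left out. It was -0.01 without day 4 replicate 2 (adjusted p = 0.963), -0.56 without day 4 replicate 1 (0.0798) and -0.15 without day 0 replicate 1 (0.7). The day 8 value was -0.22 without day 0 replicate 1 (adjusted p = 0.537) and -0.39 without day 4 replicate 2 (0.0454). With total counts both differences passed (adjusted p = 0.0405 and 0.0228). The counts of Malat1 per Neat1 count were 0.686, 0.355 and 0.579 at day 0, 0.242, 0.353 and 0.325 at day 4, and 0.223, 0.283 and 0.38 at day 8. This pair, too, was chosen after its values were seen. The day 4 libraries lay below all day 0 libraries, by 0.78 on the log2 scale on average, while day 8 replicate 3 overlapped day 0, with a mean difference of -0.85. No test is given. The short and long Neat1 transcripts share a row and were not separated.

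**Figure D4:**
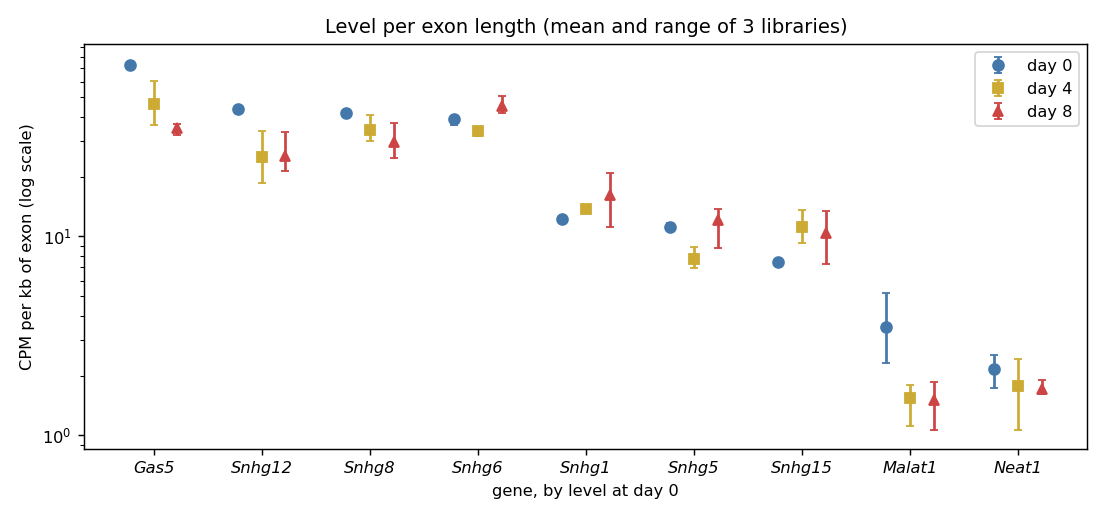
CPM per kb of exon on a log axis for 9 lncRNAs ordered by their day 0 level; points are means and bars the range of 3 libraries, by day. Gas5 stands at 35 at day 8, below Snhg6 at 45.4 on that day, and at 72.3 at day 0, and Malat1 and Neat1 stay under 6 throughout. The order between genes holds for the annotated GENCODE M21 lengths only.

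Levels of different genes were compared per kb of exon, with a single exon length per gene from GENCODE M21. This length need not be that of any 1 spliced transcript. It was 3760 bases for Gas5, 1146 for Snhg6 and 20771 for Neat1. Whether the RNA present had these lengths was not tested, so the order between genes holds for these lengths only. Before division by length, Gas5 averaged 131.4 CPM and Snhg6 52.08 CPM at day 8. Neat1 averaged 44.75 CPM and Snhg15 10.15 CPM at day 0. At day 0 Gas5 led with 72.3 ± 2.83 CPM per kb, followed by Snhg12 (43.8 ± 1.82), Snhg8 (41.6 ± 0.721), Snhg6 (38.7 ± 2), Snhg1 (12.2 ± 0.475), Snhg5 (11.1 ± 0.594) and Snhg15 (7.47 ± 0.239), each SD with n = 3. Malat1 (3.49 ± 1.5) and Neat1 (2.15 ± 0.403) came last of the tested members at day 0, and both that pair and Snhg12 with Snhg8 overlapped in range. At day 8 the order began with Snhg6 (45.4 ± 4.84), whose range lay above that of Gas5 (35.0 ± 2.48). Gas5, Snhg8 and Snhg12 overlapped with their neighbours in that order, as did Snhg1, Snhg5 and Snhg15. On day 4 the 4 leading genes, Gas5, Snhg8, Snhg6 and Snhg12, each overlapped with the next. Malat1 and Neat1 overlapped with each other on all 3 days and with none of the 7 tested hosts.

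By Pearson correlation of log2 CPM over the 9 libraries, the genes most like Gas5 were Rpl7 (0.992), a large-subunit ribosomal protein, Kcnj2 (0.988), an inward-rectifier potassium channel, and Gm53 (0.987), and 315 genes were above 0.95. Rpl7 had 1203 ± 9.26 CPM at day 0, 954.6 ± 125 CPM at day 4 and 811.9 ± 42 CPM at day 8. For Malat1 they were Ddias (0.934), Ogn (0.922), the matrix proteoglycan osteoglycin, and Abracl (0.92), and for Neat1 2510016D11Rik (0.94), Phf10 (0.859) and Ccp110 (0.855). Within the set, Snhg8 and Snhg12 were at 0.91, Gas5 with Snhg12 at 0.836 and with Snhg8 at 0.83, Snhg5 with Snhg6 at 0.707 and Malat1 with Neat1 at 0.664. These points share libraries, scaling and the 3 days, so the values describe likeness only.

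Other noncoding snoRNA hosts went both ways. Of 10 tested from a list of 13, 3 were higher and 2 lower at day 8 than at day 0, with a median log2 fold change of -0.30 against 0.03 over all genes. With total counts 2 of the 10 were higher and 4 lower. Snhg16 had 16.49 CPM at day 8 and 8.024 CPM at day 0 on average (log2 fold change 1.04, edgeR adjusted p = 0.00703), Epb41l4aos 28.85 and 15.27 CPM (0.92, edgeR adjusted p = 0.00235) and Snhg11 0.9813 and 0.2333 CPM (2.05, edgeR adjusted p = 0.0498). Snhg4 (-1.72, edgeR adjusted p = 0.00186) and Dancr (-1.77, edgeR adjusted p = 0.0259) were lower. Snhg11 at day 0 (0.0648 to 0.473 CPM) and Dancr at day 8 (0.0377 to 0.561 CPM) reached below the level of 3 counts. Their log2 fold changes had an SE of 0.83 and 0.61. Among 28 protein-coding genes that carry snoRNAs, most of them ribosomal proteins and elongation factors of the 5′ TOP class, 15 were lower and 1 higher at day 8 than at day 0 (median -0.51), and 1 was lower and 2 higher at day 4 than at day 0 (median -0.07). The lower ones at day 8 included Rpl4 (932.9 against 1770 CPM at day 0; -0.92, edgeR adjusted p = 0.000969) and Rpl13a (75.78 against 153.7 CPM; -1.02, edgeR adjusted p = 0.00132). The higher one was Eif4a2, an RNA helicase of the eIF4A family (1.02, edgeR adjusted p = 0.00249). At day 4 Eif4a1 (0.41, edgeR adjusted p = 0.0178) and Ppan (0.47, edgeR adjusted p = 0.0219) were higher and Rpl5 (-0.54, edgeR adjusted p = 0.0131) lower than at day 0. With total counts the day 8 split was 1 higher and 23 lower.

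**Figure D5:**
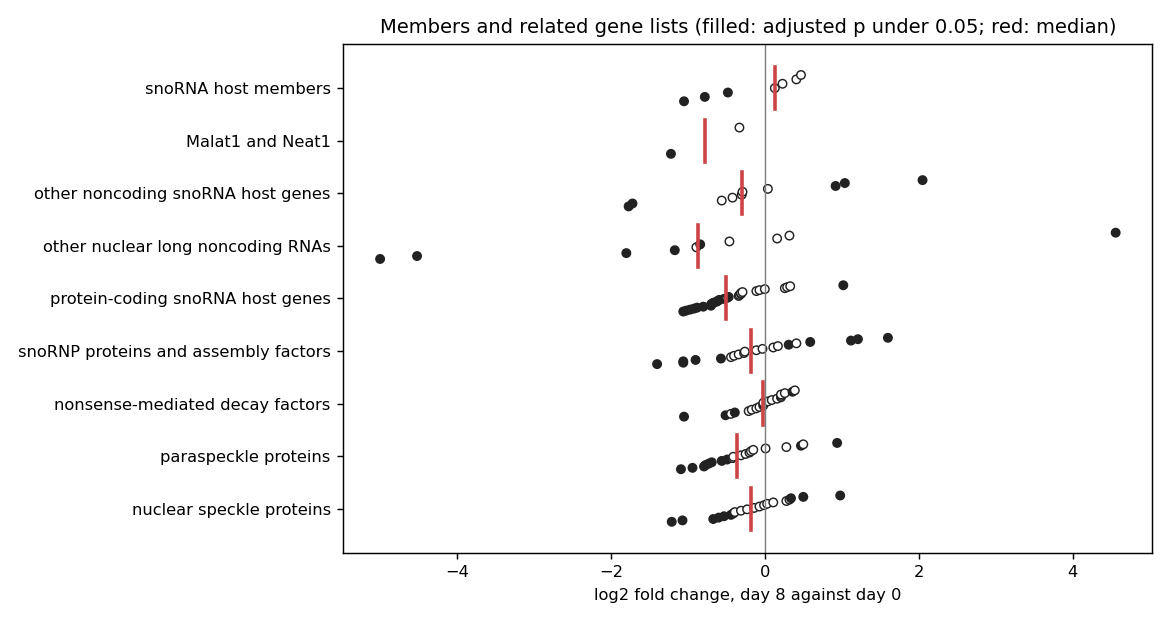
Log2 fold change of day 8 against day 0 for every tested gene (points) of the noncoding RNAs described here, split into hosts and the pair Malat1 and Neat1, and of 7 related lists; filled points have an edgeR adjusted p under 0.05 and red bars are medians. The median lies at -0.51 for protein-coding snoRNA hosts and at -0.02 for decay factors.

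Proteins that make and use snoRNAs were both higher and lower, and the split moved with the setting. Of 20 snoRNP proteins and assembly factors 5 were higher and 5 lower at day 8 than at day 0 (median -0.19). Nop10, a core protein of H/ACA snoRNPs, rose to 111.2 CPM at day 8 against 36.71 CPM at day 0 (1.60, edgeR adjusted p = 3.02e-05), and the AAA+ assembly factor Ruvbl2 rose too (1.12, edgeR adjusted p = 0.000149). Nop56, a core protein of box C/D snoRNPs that is also on the list of protein-coding hosts, fell (-1.06, edgeR adjusted p = 0.00187), as did the nucleolar phosphoprotein Tcof1 (-1.40, edgeR adjusted p = 0.000245). With total counts 3 of these 20 were higher and 9 lower (median -0.546). Without day 4 replicate 2, with TMM scaling, 4 were higher and 6 lower (median -0.234). Of 20 nonsense-mediated decay factors 1 was higher and 3 lower at day 8 than at day 0 (median -0.02). The lower ones were the endonuclease Smg6 (-1.05, edgeR adjusted p = 8.39e-05), the helicase Upf1 (-0.51, edgeR adjusted p = 0.0199) and the adaptor Smg5 (-0.39, edgeR adjusted p = 0.032). With total counts 10 of the 20 were lower.

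Among partners of the nuclear RNAs, 8 of 20 paraspeckle proteins were lower and 2 higher at day 8 than at day 0 (median -0.36). Nono had 150.7 CPM at day 8 and 256.8 CPM at day 0 (-0.77, edgeR adjusted p = 0.000742) and its partner Sfpq 48.67 and 71.67 CPM (-0.56, edgeR adjusted p = 0.0269). Pspc1, the third of the core family, had -0.20 (edgeR adjusted p = 0.346). The RNA-binding proteins Hnrnpm (-1.09, edgeR adjusted p = 5.5e-05) and Tardbp (-0.73, edgeR adjusted p = 0.000343) had the smallest p-values among the lower ones, and Matr3 (0.94, edgeR adjusted p = 0.0138) and Dazap1 (0.47, edgeR adjusted p = 0.0154) were higher. Of 20 nuclear speckle proteins 7 were lower and 3 higher (median -0.19), among them the splicing factors Srsf1 (-1.21, edgeR adjusted p = 0.000461) and Srsf3 (-1.07, edgeR adjusted p = 0.000133), which were lower, and Rnps1 (0.50, edgeR adjusted p = 0.0031) and the kinase Clk4 (0.98, edgeR adjusted p = 0.00246), which were higher. With total counts 15 paraspeckle and 14 speckle proteins were lower.

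Of 10 tested nuclear lncRNAs other than Malat1 and Neat1, 5 were lower and 1 higher at day 8 than at day 0 (median -0.86). Rian and Meg3, maternally expressed RNAs of the imprinted Dlk1-Dio3 domain, had the largest falls. Rian averaged 9.623 ± 4.13 CPM at day 8 and 220.9 ± 14.1 CPM at day 0 (SD, n = 3 each; log2 fold change -4.52, edgeR adjusted p = 4.8e-05), and Meg3 1.301 and 41.52 CPM (-5.00, edgeR adjusted p = 0.000179). Pvt1 (-0.84, edgeR adjusted p = 0.00124), Firre (-1.17, edgeR adjusted p = 0.00808) and Mirg (-1.80, edgeR adjusted p = 0.00331) were the others. The higher one, Kcnq1ot1, had 28 counts at day 8 and 1 count at day 0, a ratio of 34 with a 95% counting interval of 5.62 to 1390 (counting error only), and its day 8 libraries ranged from 0 to 0.806 CPM. Tug1, at 27.77 CPM at day 8 and 38.09 CPM at day 0, did not pass (-0.46, edgeR adjusted p = 0.0895). Xist and the small RNAs Rmrp, Rpph1, Terc and Rnu11 were listed at 0 counts in every library, and Rnu12 had 5 counts in all.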

How the data were processed

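RNA-seq read counts of 9 libraries were analysed, 3 per day, grouped by the labels' titles. The authors deposited raw read counts per Ensembl gene, 1 column per library. The submitters' processing notes name HISAT2, featureCounts and the build GRCm39. Tool versions, annotation release and strand setting are not given in the sources used here, which leaves reads of overlapping genes on either strand uncertain. Per the labels' protocols, a stranded total RNA kit was used on RNA of the cleared lysate.

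In R 4.3.3, edgeR 4.0.16 kept genes with filterByExpr (minimum count 10, minimum total 15) and fitted all 9 libraries together with TMM scaling, no covariates and 6 residual degrees of freedom (biological coefficient of variation 22.7%). Two-sided quasi-likelihood F-tests were adjusted over all 14649 genes at a threshold of 0.05. Each SE was derived from the test, as the absolute log2 fold change over the square root of F. Unless DESeq2 (1.42.0) is named, every adjusted p in the text is edgeR's. Alternatives were DESeq2, other scalings, no filter, the 2 days compared alone, a replicate block and leaving out each library. No pair of replicates agreed within sampling noise (chi-square per degree of freedom 15.5 to 229).

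GENCODE M21 and RefSeq are on GRCm38, another build, so they gave only gene types, exon lengths, which genes overlap and the start sequences. Text names the members, per list the 2 higher and 2 lower genes with the smallest adjusted p among those called at day 8 against day 0, the 3 genes most like Gas5, Malat1 and Neat1, and genes behind counts of 5 or fewer, the last chosen after their values were seen, as were Nono, Sfpq, Pspc1 and Tug1. Members, lists and tests were chosen with earlier results of these data known. The values of 1 gene from the lists are not reported here.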

Additional observations from a re-analysis of the deposited data

How the results depend on the processing

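With total counts in place of TMM the median gene had a log2 fold change of -0.336 at day 4 and -0.332 at day 8 against day 0 (-0.0125 and 0.0283 with TMM), and the share of called genes that were higher was 35.3% and 37.5% in place of 52.4% and 52.9%. Then 7 members were called at day 4 against day 0, where 59.4% of all genes were, and log2 fold changes turned to -0.16 for Snhg1 at day 4, -0.24 for Snhg5 and -0.14 for Snhg6 at day 8, each against day 0, and -0.04 for Snhg12 at day 8 against day 4. The day 8 against day 4 comparison was the least stable. Its count of called members was 1 with no filter on low counts, 0 with only the 2 days compared (edgeR; 2 had an unadjusted p under 0.05, and DESeq2 on all libraries called 2) and 0 to 2 without single libraries (0 without any day 0 library, day 4 replicate 3 or day 8 replicate 2, with 2 or 3 at an unadjusted p under 0.05, and 1 without day 4 replicate 2 or day 8 replicate 1 or 3). Its count of all genes was 1901 with only the 2 days compared, in place of 3285, and 1894 to 4185 without single libraries (1894 without day 4 replicate 3, 2107 and 2012 without day 8 replicate 1 or 2). Snhg12 there was -0.01 with only the 2 days compared, and ranged from -0.22 to 0.24 without single libraries, Snhg15 from -0.33 to 0.11, Malat1 from -0.29 to 0.16 and Neat1 from -0.37 to 0.23. Without single libraries the called members numbered 1 to 5 at day 4 (1 without day 4 replicate 3) and 2 to 5 at day 8 (2 without day 8 replicate 1), against day 0. Among alternatives for single members, 347 left direction and call unchanged, 30 lost a call, 13 gained one and 15 turned sign; the cause was not tested. Gas5 and Malat1 were called lower at day 8 against day 0 under every alternative run. Whether replicate numbers pair the libraries was not settled. Deviations from the day mean correlated from -0.126 to 0.273 between same-numbered libraries. Between day 0 and day 8 the same-numbered values (0.273, 0.138 and 0.0859) lay above all others (-0.18 to 0.0366), while between day 4 and day 8 they did not. With a replicate block 4, 4 and 2 members were called in day 4 and day 8 against day 0 and day 8 against day 4. Malat1 at day 8 against day 4 was then 0.01. Below about 0.1 CPM, the level of 3 counts, a member could not be followed.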
